A study of Homo sapiens with 4 samples.

Results

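The genes HMGCS1, IDI1, FDFT1, SQLE, LSS, DHCR7, SREBF2 and INSIG1, of cholesterol synthesis and its control, were followed across 4 two-colour gene expression arrays. They were found by gene name among the non-control spots, which gave 12 probes of 41000 on the array and 8 gene names of 30975. FaDu, a hypopharyngeal squamous carcinoma line, and HSC3, a tongue squamous carcinoma line, were transfected with miR-489 or miR-504, and total RNA was taken at 72 h. Each array set RNA of one miRNA transfectant, in the red dye Cy5, against RNA of that line after transfection of a control miRNA, in the green dye Cy3. There was 1 array per line and miRNA and the dyes were not swapped, so a value on one array has no replicate check and a dye effect of a probe cannot be told apart from an effect of the miRNA in a single ratio. The labels do not say whether the control RNA on the arrays of one line came from separate cultures.

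Each array had 43376 non-control spots, none saturated and 118 to 137 flagged as outliers, and 58.2% to 59.2% of these spots were well above background in Cy3. A log2 ratio below is the log2 of Cy5 over Cy3, after background subtraction, with the median of the bright probes set to 0 on each array. Each of the 8 genes was measured by 1 spot per probe and array. Probes printed at least 5 times on an array varied between spots with an SD of 0.0979 on the log2 scale, which gives an SD of 0.138 for a difference between arrays and covers spot error only. Of 7 squamous epithelium markers, 6 were matched by name and all 6 were well above background on every array. The markers PTPRC, PECAM1, ALB and APOA1, of leukocytes, endothelium and liver, were not well above background in Cy3 on any array, and the fibroblast marker COL1A1 was above it on the HSC3 arrays only. At least 1.5-fold higher ratios were seen for 3 of the 6 squamous markers on each array, and lower ones for 2 of them except on the FaDu miR-504 array, with 1. The part of this in the results below was not tested.

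Cholesterol is built from acetyl-CoA through mevalonate, isoprenoids and squalene, and most enzymes of the route are controlled together. When sterols in the endoplasmic reticulum are low, SCAP carries SREBP-2, the product of SREBF2, to the Golgi, where proteases release its active part, which binds sterol regulatory elements in the promoters of synthesis genes. When sterols are plentiful, INSIG proteins hold SCAP back in the endoplasmic reticulum.

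The mature miRNAs are shown because their seeds, bases 2 to 8 in capitals, govern which transcripts they can pair with, and the comparison of both miRNAs is the main one here. The sequences are those of RefSeq on GRCh38.p14. The hsa-miR-489-3p sequence lies at chr7:93483947-93483968 on the minus strand, hsa-miR-504-5p at chrX:138667760-138667781 on the minus strand and hsa-miR-504-3p at chrX:138667724-138667744 on the minus strand. The labels name no arm, so both arms of miR-504 are given, and for miR-489 the one that the sequence table held. None of the seeds is shared.
hsa-miR-489-3p: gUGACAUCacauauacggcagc
hsa-miR-504-5p: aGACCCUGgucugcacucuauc
hsa-miR-504-3p: gGGAGUGCagggcaggguuuc

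Promoters, from 250 bases before to 50 bases after a RefSeq start, were searched on both strands for the core of a sterol regulatory element, written CACNCCAC, and for CCAAT, the box bound by NF-Y. An entry was held for 6 of the 8 genes (SQLE and FDFT1 had none). The core was present for 3 of these 6, INSIG1, IDI1 and SREBF2, against 7.05% of the 27305 genes with an entry. CCAAT was present for all 6, against 39.7% of genes, and GGGCGG, the GC box, also for all 6, against 48.3%. IDI1 had a match in 1 of its several starts. The windows below show the cores and the CCAAT boxes near them in capitals, on either strand. A match is a description of the letters and not a site shown to be used. INSIG1 is shown at chr7:155297645-155297724 on the plus strand, IDI1 at chr10:1048947-1049026 on the minus strand and SREBF2 at chr22:41832948-41833027 on the plus strand, all GRCh38.p14. The core began 208, 115 and 132 bases before the start, and the nearest CCAAT lay 30, 9 and 18 bases from it, for INSIG1, IDI1 and SREBF2 in that order.
INSIG1: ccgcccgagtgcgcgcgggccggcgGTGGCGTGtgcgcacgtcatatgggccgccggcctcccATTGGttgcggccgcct
IDI1: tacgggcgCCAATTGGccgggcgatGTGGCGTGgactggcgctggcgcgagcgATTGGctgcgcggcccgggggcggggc
SREBF2: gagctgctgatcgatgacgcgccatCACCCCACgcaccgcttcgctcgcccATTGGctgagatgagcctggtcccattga

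In both lines and with both miRNAs, DHCR7 and FDFT1 gave at least 1.5 times the signal of control transfectants, and INSIG1 did so on 3 of 4 arrays. IDI1 passed 1.5-fold on the HSC3 miR-489 array alone. None of the 8 genes was 1.5-fold lower on any array. The median log2 ratio of the 8 genes was 0.42 on the FaDu miR-489 array, 0.17 on the FaDu miR-504 array, 0.63 on the HSC3 miR-489 array and 0.14 on the HSC3 miR-504 array. The median of all genes lay between -0.021 and -0.0057. Both miR-504 medians rested on the normalisation: they were 0.074 in FaDu and 0.036 in HSC3 after loess, and 0.059 and 0.015 from the deposited log ratios.

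On the FaDu miR-489 array 3 of 8 genes were at least 1.5-fold higher, where 13% of genes tested were, and 0 were lower, where 20.3% were. On the FaDu miR-504 array 3 of 8 were higher against 11.1% of genes, and 0 were lower against 15.9%. The HSC3 miR-489 array had 4 of 8 higher against 12.2%, and 0 lower against 19.5%. On the HSC3 miR-504 array 2 of 8 were higher against 10.2%, and 0 lower against 15.4%.

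**Figure D1:**
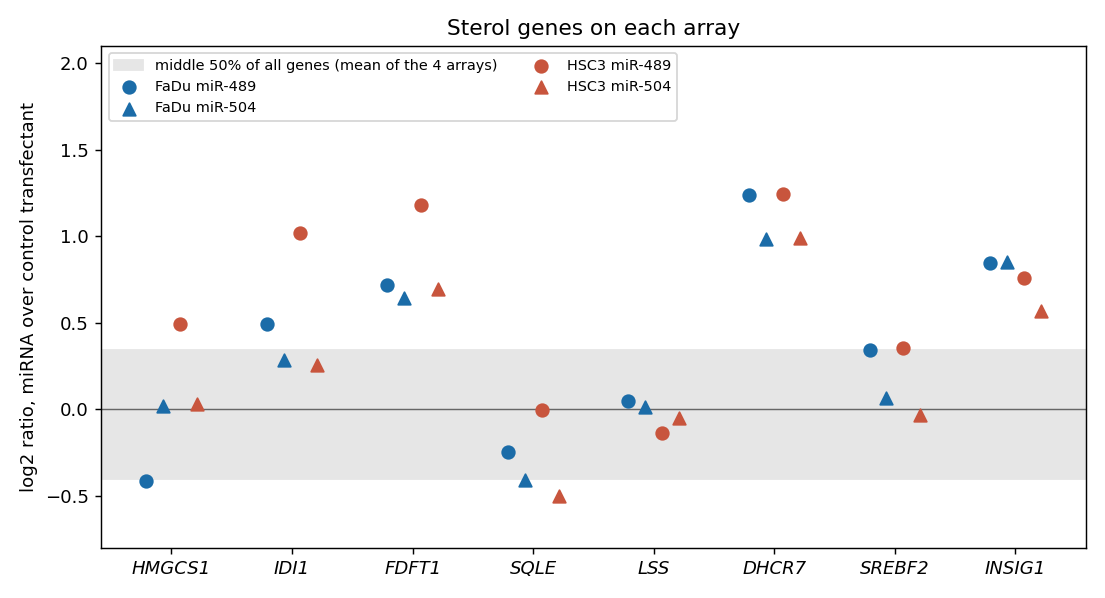
Log2 ratio of miRNA over control transfectant (y axis) for each of the 8 genes (x axis, in pathway order, brightest probe), with 1 point per array: blue for FaDu, red for HSC3, circles for miR-489 and triangles for miR-504. The grey band is the middle 50% of all genes. DHCR7, FDFT1 and INSIG1 lie above the band on all 4 arrays, and SQLE lies at or below 0.

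Of the early enzymes, HMGCS1 makes HMG-CoA, a precursor of mevalonate. Its brightest probe, A_24_P63522, had log2 ratios of -0.42 with miR-489 and 0.017 with miR-504 in FaDu, and 0.49 and 0.030 in HSC3. The miR-489 arrays of the lines thus lay on either side of the miR-504 arrays, which were near 0. A second probe, A_23_P133263, read 0.47, 0.51, 1.37 and 0.57 on the same arrays in the same order. The second probe was higher than the first on every array, and both were highest on the HSC3 miR-489 array. The mean of both probes on the FaDu miR-489 array was 0.029, so the sign there rested on the probe chosen.

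IDI1 converts isopentenyl diphosphate to its isomer, the starter of isoprenoid chains. Its log2 ratios were 0.49 with miR-489 and 0.29 with miR-504 in FaDu, and 1.02 and 0.25 in HSC3. The HSC3 miR-489 array stood apart, at 2.03 times control, and the other arrays ranged from 1.19 to 1.41 times control.

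FDFT1, squalene synthase, commits the route to sterols. It gave 0.72 with miR-489 and 0.64 with miR-504 in FaDu, and 1.18 and 0.70 in HSC3. The HSC3 miR-489 array was the highest, at 2.27 times control, and the other arrays ranged from 1.56 to 1.64 times control. SQLE, squalene epoxidase, acts next and was the one gene with no ratio above 0: -0.25 with miR-489 and -0.41 with miR-504 in FaDu, and -0.0016 and -0.50 in HSC3. Its miR-504 arrays were the lowest in both lines.

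LSS closes the sterol rings. Its brightest probe, A_24_P384839, stayed near 0, at 0.048 with miR-489 and 0.016 with miR-504 in FaDu, and -0.13 and -0.052 in HSC3. A second bright probe, A_24_P110799, read 0.60, 0.40, 0.39 and 0.29 in that order. The remaining probes, A_23_P211252 and A_24_P162211, were dim, with Cy3 signals of 26 to 51, and read 0.19 to 1.32 and 0.27 to 0.51. The 4 LSS probes therefore disagreed, and a direction for LSS depends on the probe.

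**Figure D2:**
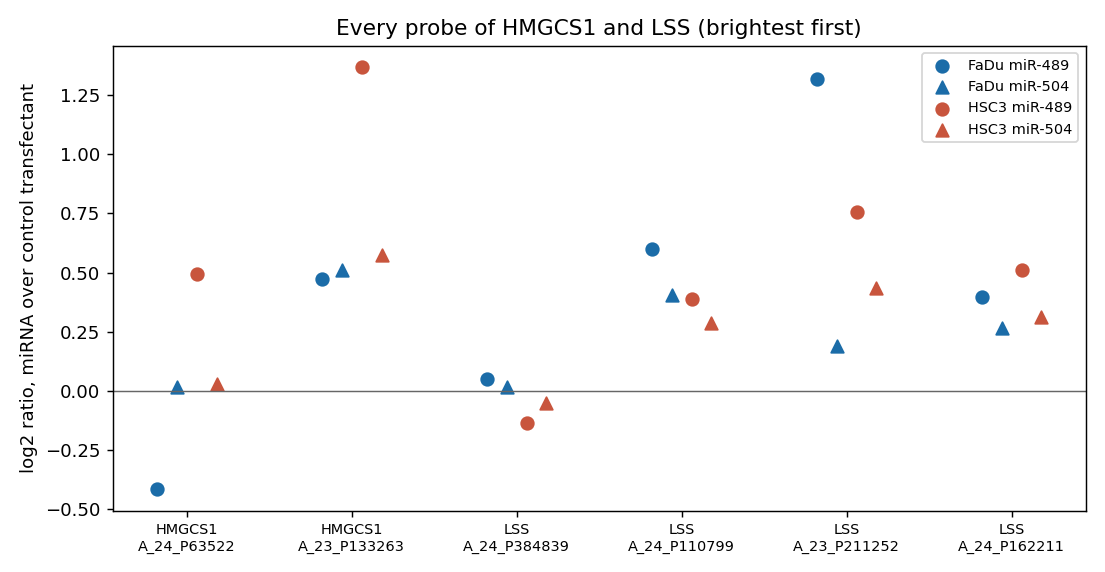
Log2 ratio of miRNA over control transfectant (y axis) for every probe of HMGCS1 and LSS (x axis, brightest probe first within a gene), 1 point per array with the line as colour and the miRNA as shape. The brightest probe of each gene reads below its other probes on each array.

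DHCR7 makes cholesterol in the last step of one branch of the route. Its log2 ratios were the highest of the 8 genes by the brightest probe on every array, at 1.24 with miR-489 and 0.98 with miR-504 in FaDu, and 1.24 and 0.99 in HSC3, or 1.98 to 2.37 times control. The lines gave nearly the same value for each miRNA.

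Of the regulators, SREBF2 gave 0.34 with miR-489 and 0.063 with miR-504 in FaDu, and 0.35 and -0.035 in HSC3. The miR-489 arrays were the higher ones in both lines. INSIG1, itself a target of SREBP-2, gave 0.85 with miR-489 and 0.85 with miR-504 in FaDu, and 0.76 and 0.57 in HSC3. It was above control on all arrays, with the HSC3 miR-504 array the lowest.

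The difference between the miRNAs within a line leaves out a dye effect that a probe has on both arrays. In HSC3 the miR-489 array was higher for 7 of 8 genes, with a median difference of 0.43, and in FaDu for 6 of 8, with a median of 0.12 (0.059 after loess and 0.18 with the mean of all probes of a gene). The medians of all genes were 0.016 and 0.010. IDI1 was the one gene past 1.5-fold, in HSC3 (0.76), so 1 of 8 was higher there against 3.55% of genes, and 0 were lower against 5.95%. In FaDu 0 were higher against 4.51%, and 0 were lower against 7.83%. In HSC3, IDI1, SQLE (0.50), FDFT1 (0.48), HMGCS1 (0.46) and SREBF2 (0.39) exceeded 0.277, which is 2 SD of spot error for a difference. DHCR7 (0.26), INSIG1 (0.19) and LSS (-0.082) did not. In FaDu, HMGCS1 exceeded it by its brightest probe (-0.43) and not by its second (-0.034). SREBF2 (0.28) stood at it, and the other 6 genes ranged from -0.0066 to 0.25. The HSC3 difference was above the FaDu difference for 7 of 8 genes, LSS being the exception. The shares of all genes in that order, with a difference above 0 or with one past 0.277 were not counted, so these counts have no background. The cutoff of 0.277 covers spot error only and leaves out variation between arrays. Over all genes, the Cy3 signal of the controls differed between the arrays of one line with an SD of 0.358 in HSC3 and 0.277 in FaDu. Passing the cutoff therefore does not set a gene apart from differences between arrays. With 1 array per line and miRNA, the difference between the lines could not be tested.

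**Figure D3:**
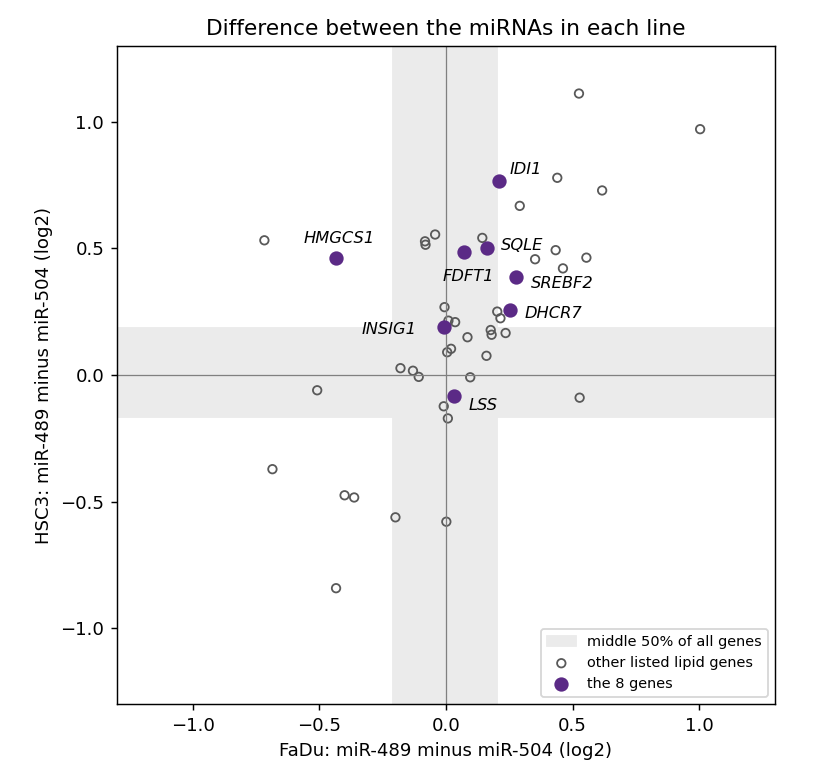
The miR-489 minus miR-504 difference of log2 ratios in FaDu (x axis) and HSC3 (y axis), with the 8 genes as filled points and other listed lipid genes as open points. Grey bands are the middle 50% of all genes in each line; 7 of the 8 genes lie above the HSC3 band, INSIG1 at its edge, and HMGCS1 lies on opposite sides of 0 in the lines.

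Each difference is made of the Cy5 difference between the miRNA transfectants and the Cy3 difference between the controls on the same arrays. In HSC3 the Cy5 signal was higher on the miR-489 array for FDFT1 (0.60), IDI1 (0.54), SREBF2 (0.37), DHCR7 (0.34) and HMGCS1 (0.17), and the median over the 8 genes in Cy5 alone was 0.26. The middle 50% of all genes spanned -0.21 to 0.26 in this channel. SQLE was different: its Cy5 difference in HSC3 was -0.025 and its Cy3 difference -0.49, so its ratio difference came from the control channel. The Cy3 signals of SQLE were 3415 on the HSC3 miR-489 array and 5724 on the HSC3 miR-504 array. INSIG1 was of the same kind, with -0.050 in Cy5 and -0.20 in Cy3. By its brightest probe, the HMGCS1 difference in HSC3 also held more in Cy3 (-0.25) than in Cy5 (0.17). Its second probe had -0.041 in Cy3 and 0.71 in Cy5, so the split of HMGCS1 between the channels rested on the probe. In FaDu the brightest HMGCS1 probe held -0.14 in Cy5 and 0.27 in Cy3, and the second held 0.42 and 0.44. SREBF2 had 0.46 in Cy5 and 0.16 in Cy3 there, and DHCR7 had -0.057 in Cy5 and -0.33 in Cy3.

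**Figure D4:**
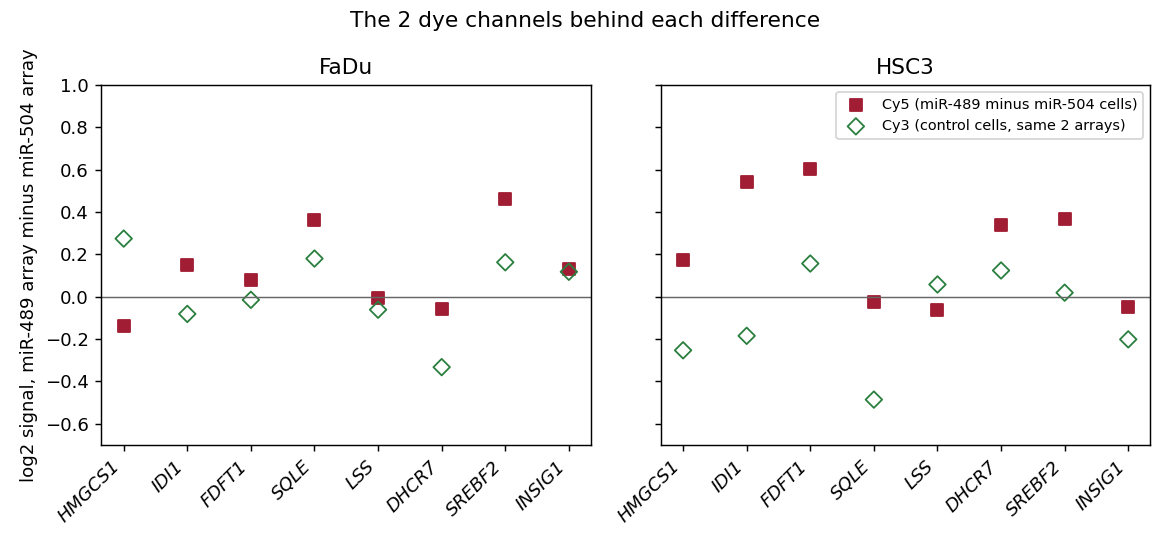
Log2 signal of the miR-489 array minus that of the miR-504 array (y axis) for the 8 genes (x axis) in FaDu (left) and HSC3 (right), with Cy5, the miRNA transfectants, as filled squares and Cy3, the controls, as open diamonds. For SQLE in HSC3 the Cy3 point is at -0.49 and the Cy5 point near 0.

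In limma the lines stood in as replicates of each miRNA, and they are not replicate cultures. Each probe was tested against a spread that mixed its own difference between lines with the spread over all probes. The mix had 2 residual degrees of freedom per probe and 3.2 from all probes (prior SD 0.135). Where the lines gave nearly the same value, as for DHCR7, the SE thus rested mostly on the spread over all probes. For miR-489 minus miR-504, 0 of 8 genes were called at an adjusted p under 0.05, where 0.306% of probes were higher and 0.76% lower. At an unadjusted p under 0.05 limma had 1 of the 8, against 3869 of 20914 probes, so this count shows nothing particular to the 8 genes. The gene was SREBF2, with a difference of 0.33 (95% CI 0.053 to 0.61, adjusted p = 0.214). The interval was -0.0059 to 0.98 for IDI1 (difference 0.49) and -0.75 to 0.78 for HMGCS1 (difference 0.015). For the second HMGCS1 probe, A_23_P133263, it was -0.37 to 1.13 (difference 0.38). Against control, limma called DHCR7 (1.24, SE 0.075, adjusted p = 0.000884), FDFT1 (0.95), INSIG1 (0.80), IDI1 (0.76) and SREBF2 (0.35) higher with miR-489. That was 5 of 8 against 30.5% of probes, with 0 lower against 26.5%. The SREBF2 call was lost without the FaDu miR-489 array (adjusted p = 0.0677) or the HSC3 miR-489 array (adjusted p = 0.0721). In those same fits the brightest HMGCS1 probe stood at 0.49 without the FaDu array and at -0.42 without the HSC3 array. The second HMGCS1 probe was above 0 on both miR-489 arrays, at 0.47 in FaDu and 1.37 in HSC3. With miR-504, DHCR7 (0.98), INSIG1 (0.71) and FDFT1 (0.67) were higher, 3 of 8 against 26.2% of probes, and SQLE (-0.45, adjusted p = 0.0139) was lower, 1 of 8 against 23.4%. The calls so far use the brightest probe of each gene, and other probes differed. LSS A_24_P110799 was called higher with miR-489 (0.49, adjusted p = 0.00811) and with miR-504 (0.34, adjusted p = 0.0288). HMGCS1 A_23_P133263 was called higher with miR-489 (0.92, adjusted p = 0.0159) and not with miR-504 (0.54, adjusted p = 0.0834). All calls against control include any dye effect. The miR-504 count of 4 was 1 without the FaDu miR-504 array and 2 without the HSC3 miR-504 array. In such fits one miRNA has a single array, which is assumed to vary as the arrays of the other miRNA do, and the calls over all probes also went from 10379 to 3469 and 4169.

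In control transfectants all 8 genes were well above background on every array. IDI1 had Cy3 signals of 464 and 485 in FaDu and of 999 and 1359 in HSC3, which is 2.11 times higher in HSC3 after centring, and the lines did not overlap. By the brightest probe of each gene, IDI1 was the one of 8 at least 1.5-fold higher in HSC3, against 18.9% of genes. On the same probes 0 were 1.5-fold higher in FaDu, against 24.2%. LSS (0.56 on the log2 scale), FDFT1 (0.49) and INSIG1 (0.27) were also higher in HSC3. HMGCS1 (-0.54), DHCR7 (-0.41), SQLE (-0.27) and SREBF2 (-0.10) were lower. HMGCS1 stood at -0.77 by its second probe and at -0.66 with the mean of its probes. Both are past 1.5-fold, so the 0 of 8 rested on the probe chosen. SQLE overlapped between the lines. The other genes did not, though SREBF2 only by little, with nearest centred values of 1.79 in FaDu and 1.77 in HSC3. The share of all genes without overlap was not counted, so this shows nothing particular to the 8 genes. Over all genes the difference between the arrays of one line had an SD of 0.277 in FaDu and 0.358 in HSC3. Fewer copies per cell and fewer cells expressing a gene cannot be told apart in bulk RNA.

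**Figure D5:**
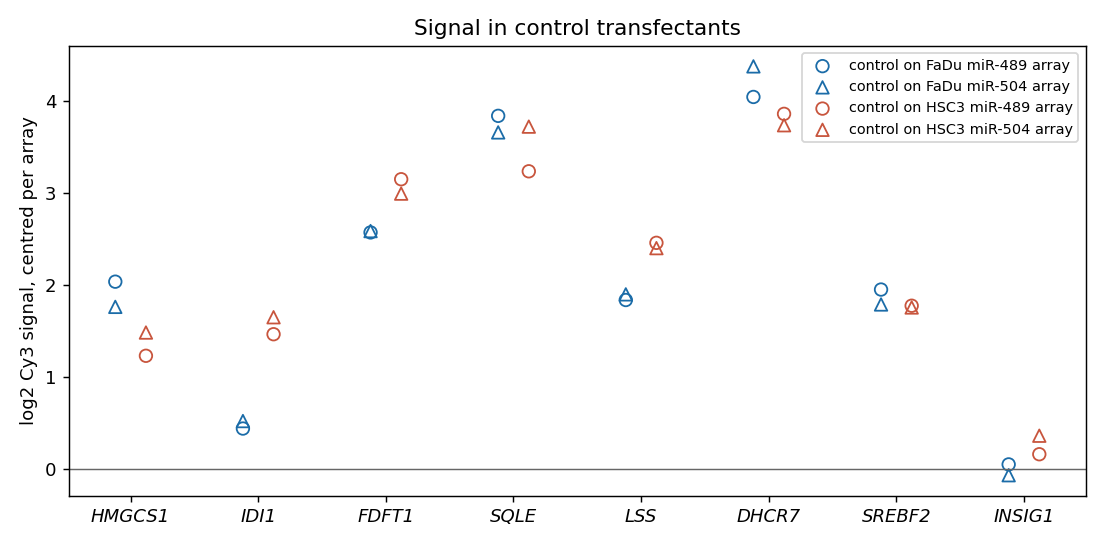
Log2 Cy3 signal of control transfectants, centred per array (y axis), for the 8 genes (x axis), with 2 arrays of FaDu in blue and 2 of HSC3 in red. Heights compare arrays within a gene, not genes; IDI1 shows the widest gap between the lines.

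Of 16 other synthesis enzymes, all measured, 3 were at least 1.5-fold higher and 3 lower on the FaDu miR-489 array, 1 and 1 on the FaDu miR-504 array, 7 and 1 on the HSC3 miR-489 array, and 2 and 1 on the HSC3 miR-504 array. The shares of all genes on these arrays, in the same order, were 13% and 20.3%, 11.1% and 15.9%, 12.2% and 19.5%, and 10.2% and 15.4%. The counts on the FaDu miR-489 array were thus near those of all genes. The HSC3 difference between the miRNAs was above 0 for 14 of the 16, with a median of 0.24, and the FaDu difference for 10, with a median of 0.090. The medians of all genes were 0.016 and 0.010, and the share of all genes above 0 was not counted. limma called 0 of the 16 between the miRNAs. LBR, a sterol reductase of the nuclear membrane, was the one enzyme at least 1.5-fold lower on all arrays, at -0.88 with miR-489 and -1.89 with miR-504 in FaDu, and -1.17 and -2.14 in HSC3. The miR-504 arrays were the lower ones in both lines (limma difference 0.99, adjusted p = 0.0686, and 0.0282 with the cell line as a block). HSD17B7, a sterol ketoreductase, was by its brightest probe also over 1.5-fold apart in both lines, by 0.62 in FaDu and 0.73 in HSC3 (limma adjusted p = 0.0683). Its second probe gave 0.46 in FaDu, under 1.5-fold, and 0.61 in HSC3. MSMO1 (0.78, in HSC3) and TM7SF2 (-0.69, in FaDu), chosen after their values were seen, passed 1.5-fold in one line.

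Among 12 genes of lipoprotein uptake and SREBP control, limma called 4 higher and 1 lower with miR-489, 2 higher and 0 lower with miR-504, and 0 between the miRNAs. Over all probes the shares were 30.5% higher and 26.5% lower with miR-489, and 26.2% and 23.4% with miR-504, so the 4 of 12 higher with miR-489 were near the share of all probes. Of 8 fatty acid genes, limma called 4 higher and 1 lower with miR-489, and 3 higher and 2 lower with miR-504, to be read against the same shares. Of 6 genes of sterol efflux and storage, 4 were measured on all arrays, with 2 higher and 1 lower with miR-489, and 2 higher and 2 lower with miR-504, too few to set against those shares. By brightest probe, the listed genes nearest the median profile of the 8 genes over the 4 arrays were FADS1, EBP and FADS2, of 40 ranked. Their root mean square differences were 0.149, 0.150 and 0.160 on the log2 scale. A second FADS1 probe did not follow the profile. It read -0.21 with miR-489 and -0.14 with miR-504 in FaDu, and 0.026 and -0.13 in HSC3.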

How the data were processed

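The 4 arrays were Agilent 2-colour scans, read with Feature Extraction 9.5.3.1 per the file headers. The authors deposited spot intensity values (median signal and median local background in each channel), marks for outlier, saturated and well-above-background spots (other), and log10 ratios of Cy5 over Cy3 that the scanner software had dye-normalised. The deposited value table held the same log10 ratios (largest difference 0). The paper's methods name other scanner and analysis software than the file headers do. Samples were grouped by the label of the Cy5 RNA.

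Local background was subtracted from the median intensity, values under 1 were set to 1, and outlier spots were left out. The log2 ratio was centred per array (0.446 to 0.651 removed). Where a gene had several probes, the one with the highest mean log2 Cy3 was used, and 1.5-fold was the threshold. limma 3.58.1 in R 4.3.3 fitted 20914 probes with one mean per miRNA (2 residual degrees of freedom) and Benjamini-Hochberg adjustment. The variance of each probe was moderated over all probes (3.2 prior degrees of freedom). The step was tested on simulated data. Alternatives were other background corrections (normexp with offset 50, none), loess (span 0.3), the deposited log10 ratios, the mean of probes, a stricter filter, a 2-fold threshold, a cell line block and leaving out each array. Named beside the 8 genes were listed genes 1.5-fold apart in both lines or changed alike on all arrays, and the 3 nearest profiles; 2 further genes that the rule names are not reported here. The genes and lists were chosen with earlier results of these data known. The number of arrays limits the precision. Figures used Python 3.11.15 and matplotlib 3.10.9.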

Additional observations from a re-analysis of the deposited data

Results flagged for a closer look

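In 3 genes the miR-489 minus miR-504 difference of log2 ratios had opposite signs in the lines, and with 1 array per line and miRNA the difference between the lines was not tested. HMGCS1 was 0.4633 in HSC3 and -0.4329 in FaDu, and its second probe gave 0.79 and -0.034. INSIG1 was 0.1906 in HSC3 and -0.006566 in FaDu, and LSS was -0.08229 in HSC3 and 0.03286 in FaDu. The FaDu value of INSIG1 and both values of LSS were smaller than the spot SD of a difference, 0.138. The opposite signs were gone for INSIG1 with the deposited log ratios (0.048 in FaDu), without background subtraction (0.0031) and with normexp (0.0022), and for LSS with the mean of probes (0.13 in HSC3). That LSS mean includes the dim probes A_23_P211252 (0.32 in HSC3) and A_24_P162211 (0.20), and the bright probe A_24_P110799 gave 0.10.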

How the results depend on the processing

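The medians of the 8 genes stayed above 0 on every array and in both differences under the alternatives run. A reversal was looked for only in values of at least 1.5-fold, and none of these changed sign. Counts of genes have no sign and could not show one. The brightest HMGCS1 probe with miR-489 was at 0.49 without the FaDu miR-489 array and at -0.42 without the HSC3 one. The sizes of the medians moved by more than the spot SD as follows. After loess the median log2 ratio was 0.30 on the FaDu miR-489 array, 0.074 on the FaDu miR-504 array, 0.50 on the HSC3 miR-489 array and 0.036 on the HSC3 miR-504 array. From the deposited log ratios it was 0.059 on the FaDu miR-504 array and 0.015 on the HSC3 miR-504 array. With the mean of all probes it was 0.54, 0.27, 0.85 and 0.28 in the order of the loess values. For LSS that mean includes the dim probes A_23_P211252 and A_24_P162211. Without background subtraction it was 0.52 on the FaDu miR-489 array and 0.28 on the FaDu miR-504 array. The HSC3 difference between the miRNAs was 0.26 in the Cy5 channel alone, an alternative chosen after seeing the data. The genes at least 1.5-fold apart in HSC3 numbered 1, against 0 at 2-fold and 2 with the mean of probes. At 2-fold, 1 of the 8 genes was higher on the FaDu miR-489 array (2.89% of genes), 0 on the FaDu miR-504 array (2.36%), 3 on the HSC3 miR-489 array (2.7%) and 0 on the HSC3 miR-504 array (1.98%). Leaving out each array in turn, limma called 1 to 5 genes for miR-504 against control and 5 for miR-489 against control, where HMGCS1 took the place of SREBF2 without either miR-489 array. Between the miRNAs these fits called 0 of all probes, so they say nothing of the 8 genes. The FaDu difference between the miRNAs, 0.12, was 0.059 after loess and 0.18 with the mean of probes. The cause of these shifts was not tested. With the cell line as a block, 558 probes and 0 of the 8 genes were called between the miRNAs, against 223 probes without it.

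Genes near 0 changed sign with the setting: LSS, HMGCS1 and SREBF2 on the FaDu miR-504 array fell below 0 under loess and with the deposited log ratios, and LSS on the HSC3 arrays rose above it with the mean of probes. One array per condition, dyes that were not swapped and single spots per probe limit each value.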
